A study of Mus musculus with 9 samples.

Results

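Spermatogonial stem cell and differentiation genes were examined in testis RNA of Pfn3-deficient mice. The 10 genes are Gfra1, Zbtb16, Lin28a, Id4, Etv5 and Uchl1, which are known from undifferentiated spermatogonia, and Kit, Sohlh1, Sohlh2 and Stra8, which are known from differentiating spermatogonia and the entry into meiosis. They were taken by symbol from a table of 38674 genes, of which 25173 had signal in at least 1 animal, and each symbol matched 1 row. The rows of Zbtb16 and Lin28a were named by Ensembl gene, and those of the other members by a locus of a merged transcript assembly. The bounds of those loci were not examined. The samples were testes of 9 male C57BL/6 mice, freed of the tunica albuginea: 3 animals with both Pfn3 alleles intact (Pfn3+/+, WT), 3 with 1 allele deleted (Pfn3+/-, Het) and 3 with both deleted (Pfn3-/-, KO). The deleted alleles were made with CRISPR/Cas9 and end translation early, and which of the study's deletion lines gave these animals, and their ages, are not given in the sources used here. QuantSeq libraries were made, whose reads lie close to the poly(A) tail of the transcript, and each value is a count of such reads on a gene, scaled by the animal's size factor (normalized counts).

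Spermatogonia are the mitotic germ cells at the base of the seminiferous tubule, and a small pool of them renews itself as stem cells. GDNF from Sertoli cells acts on this pool through the receptor GFRA1 with its partner RET, while KIT ligand acts through the receptor KIT once the cells differentiate. Retinoic acid starts both differentiation and meiosis, and Stra8 is the gene best known for its response to it. PFN3, a testis profilin that binds actin, is described from spermatids, and the comparison of spermatogonial genes between genotypes therefore concerns cells earlier in the lineage.

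Promoter sequences of Stra8 and Sohlh1 are shown because they hold the motifs of the regulators named above: the half-site of retinoic acid receptors and the E-box bound by basic helix-loop-helix factors such as SOHLH1 and SOHLH2. RefSeq windows (GRCm38.p6) of 250 bases before to 50 bases after the transcription start were found for 9 of the 10 genes, all except Zbtb16. Capitals mark the motif, and sequences are given 5′ to 3′ on the strand of the gene. The half-site AGGTCA was searched on both strands and lies in 16.3% of all 32851 windows, and 1.81% hold it at least 2 times, as the Stra8 window does. Its matches in the Stra8 window begin 38 and 194 bases before the start, and the printed stretches lie at chr6:34920898-34920927 and chr6:34920742-34920771 (plus strand). The RefSeq start of Stra8 lies 785 bases downstream of the gene start in GENCODE, so that both stretches are inside the GENCODE gene span, while the starts of Sohlh1 are the same base.
Stra8 near half-site: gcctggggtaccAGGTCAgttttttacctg
Stra8 far half-site: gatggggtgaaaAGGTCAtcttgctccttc
The E-box CANNTG, a palindrome that also takes in CACGTG, was found in 72.3% of all windows. The Sohlh1 window holds it 5 times, where windows held it 1.39 times on average, and 3 of these are CACGTG, a number reached by 0.0883% of windows. The stretches printed around these 3 lie at chr2:25847423-25847452, chr2:25847442-25847471 and chr2:25847462-25847491 (minus strand). The Sohlh1 window also holds AGGTCA 1 time, beginning 215 bases before the start and overlapping the CACGTG at 211.
Sohlh1 E-box 192 bases before the start: tctgaaggtctgCACGTGaagcagggagtc
Sohlh1 E-box 211 bases before the start: ctgtgatcaggtCACGTGgtctgaaggtct
Sohlh1 E-box 231 bases before the start: gctgcaagctatCACGTGggctgtgatcag
The E-box lies 3 times in the Gfra1 window, 2 times in 1 of the 2 Etv5 windows and 1 time in those of Kit and Sohlh2, and no match was found in those of Id4, Lin28a, Uchl1 and Stra8. These matches are letters in a window and were not tested for binding.

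Libraries held 3375546 to 4287335 reads on genes, and the detection limit, set at 3 reads, was 2.58 to 3.71 normalized counts. Pfn3 had 373 to 592 normalized counts in WT, 136 to 339 in Het and 74.7 to 279 in KO animals. Het replicate 1 lay below KO replicates 2 and 3, and reads from the 3′ end can come from a deleted allele, so these counts do not check the genotypes. WT replicate 1 stood apart, with a Pearson correlation across genes of 0.767 and 0.768 to the other WT animals, which had 0.922 between them, and Het replicate 1 had 0.789 and 0.814 to the other Het animals. Values are therefore also given without WT replicate 1 where they rest on it. The animals also differed in germ cell markers: the summed normalized counts of 4 elongating spermatid markers were 233289 to 249362 in WT, 179063 to 214894 in Het and 123388 to 199672 in KO, and those of 6 spermatocyte markers were 3774 to 4878 in WT, 3912 to 6126 in Het and 5442 to 6579 in KO. Their part in the results for spermatogonial genes was not tested. In whole testis, fewer cells of a type and less RNA per cell cannot be told apart.

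All 10 genes gave few reads. Together they took 88.4 to 143 RPM (reads on the gene scaled to the library's total reads on genes), and a single animal's count of a single gene was 0 to 167 reads. Zbtb16, Lin28a and Uchl1 lay near the counting limit. Zbtb16 was under 10 normalized counts in 5 animals and Lin28a in 5, with Lin28a at 0 reads in 3 of them. Uchl1 was under 10 in 5 animals and at 0 in 1. The other 7 genes had at least 9 reads in each animal and means over all animals of 32.5 (Kit) to 96.9 (Id4) normalized counts. The exact Poisson 95% interval of an animal's count shows the precision this gives: the 9 Sohlh2 reads of WT replicate 1 allow 4.12 to 17.1, and the 133 Id4 reads of Het replicate 1 allow 111 to 158. Such intervals and the detection limit cover counting error only.

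**Figure D1:**
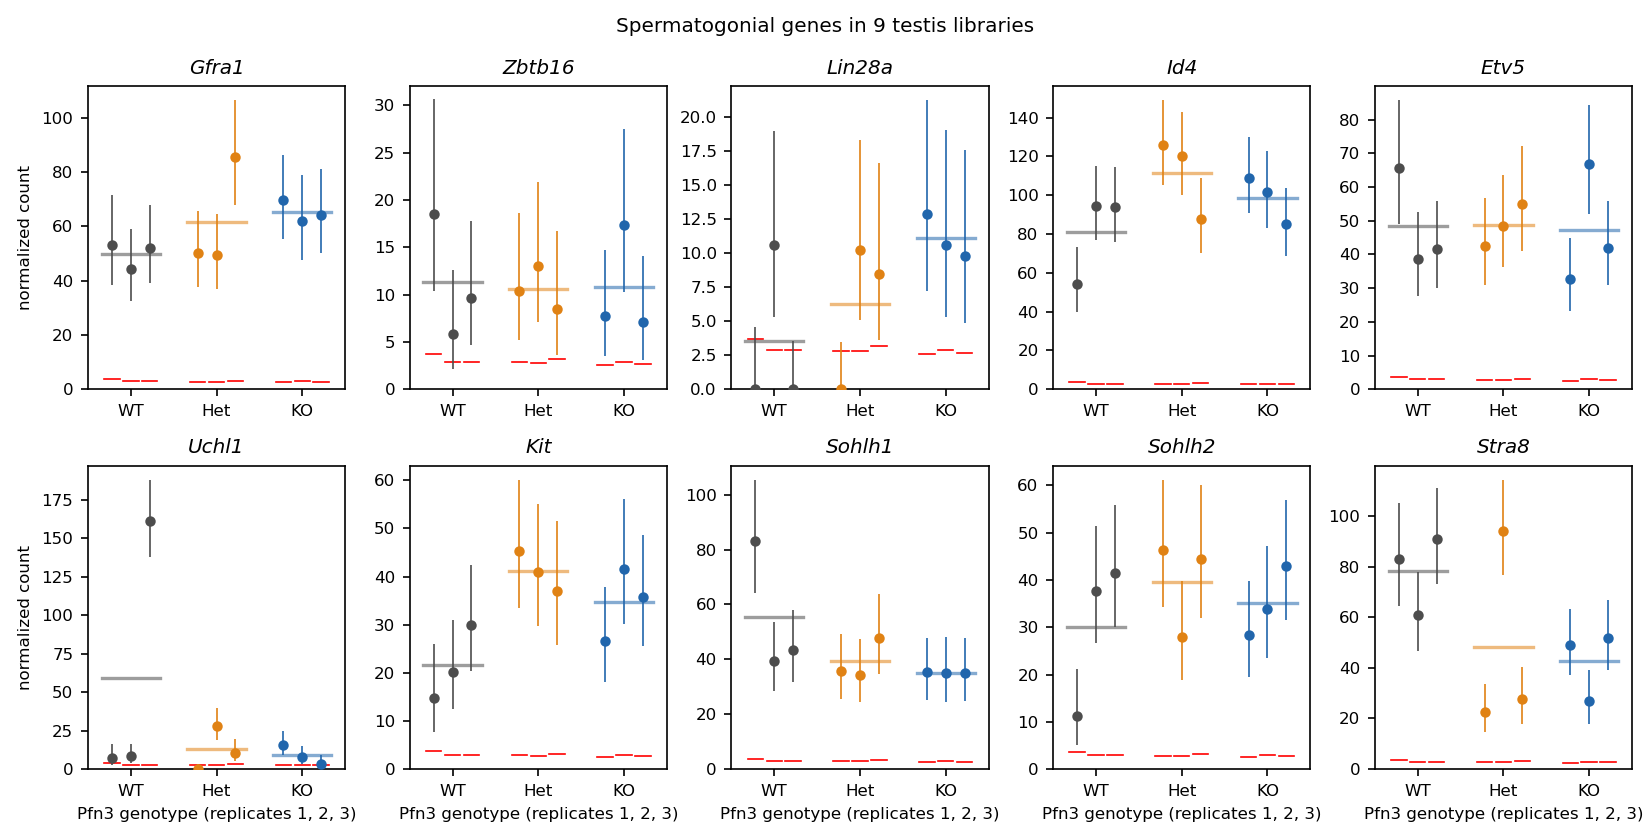
Normalized counts (y axis, linear, own scale per gene) of the 10 genes in each animal, by Pfn3 genotype (x axis). Points are animals in the order of replicates 1, 2 and 3, thin lines exact Poisson 95% intervals of the count, wide bars group means (n = 3) and red ticks the limit of 3 reads. Kit in Het animals lies above all WT animals, Stra8 in KO animals below them, and Uchl1 stands at 161 in WT replicate 3 alone.

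Gfra1 (ENSMUSG00000025089, GRCm38 chromosome 19 from 58235604 to 58455909, minus strand) encodes the co-receptor through which GDNF maintains stem cells. It had 53.2, 44.4 and 52.1 normalized counts in WT animals 1, 2 and 3, 50.1, 49.4 and 85.7 in Het and 69.6, 61.9 and 64.3 in KO. Each KO animal lay above each WT animal, and Het replicate 3 was the highest of all. The log2 fold change of KO relative to WT, by limma on log2(normalized count + 1) as all fold changes here, was 0.38 (95% interval −0.12 to 0.88, adjusted p = 0.627). It was 0.30 to 0.43 when single animals were left out.

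Id4 (ENSMUSG00000021379, chromosome 13 from 48261228 to 48266026, plus strand) encodes an inhibitor of basic helix-loop-helix factors that marks stem cells. Its normalized counts were 54.5, 94.5 and 93.7 in WT, 125.7, 120.1 and 87.8 in Het and 109.1, 101.6 and 84.9 in KO. WT replicate 1 was the lowest animal, and the genotypes overlapped. The log2 fold change was 0.48 (95% interval −0.26 to 1.22) in Het against WT and 0.32 (−0.38 to 1.01) in KO against WT, and without WT replicate 1 these became 0.22 and 0.06.

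Etv5 (ENSMUSG00000013089, chromosome 16 from 22381309 to 22439719, minus strand) encodes an ETS factor of stem cells that lies downstream of GDNF and is also made by Sertoli cells. It had 65.6, 38.6 and 41.5 normalized counts in WT, 42.5, 48.4 and 55.03 in Het and 32.6, 66.8 and 42.0 in KO. The genotype means were 48.6, 48.7 and 47.1, against an SD of 17.6 between KO animals (n = 3). Between KO and WT its log2 fold change was −0.06 with a 95% interval of −0.94 to 0.81.

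Zbtb16 (ENSMUSG00000066687, chromosome 9 from 48654297 to 48836222, minus strand) encodes PLZF, a zinc finger repressor needed for self-renewal. It had 18.6, 5.79 and 9.66 normalized counts in WT, 10.4, 13.0 and 8.47 in Het and 7.73, 17.4 and 7.15 in KO, from 6 to 18 reads an animal. The genotype means of 11.3 ± 6.56, 10.6 ± 2.29 and 10.8 ± 5.77 (SD, n = 3 each) differed by less than the spread between animals. It passed the filter on low values (3 or more of the 6 animals compared with a normalized count of 10 or more) for the comparisons with Het but not for KO against WT.

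Lin28a (ENSMUSG00000050966, chromosome 4 from 134003330 to 134018841, minus strand) encodes an RNA-binding protein that blocks maturation of the let-7 miRNAs. It had 0, 10.6 and 0 normalized counts in WT, 0, 10.2 and 8.47 in Het and 12.9, 10.6 and 9.83 in KO. All 3 KO animals had reads, while 2 WT animals and 1 Het animal had none, and the animals with reads lay within 8.47 to 12.9. In the animals at 0 the detection limit of 3 reads was 2.83 to 3.71 normalized counts, which covers counting error only. For KO against WT the log2 difference was 2.41 with a 95% interval of −0.31 to 5.13 (adjusted p = 0.613). It was 3.04 with 0.5 added before the logarithm in place of 1, 1.14 with 5 added, 1.59 by edgeR, 1.66 by DESeq2 and 1.82 without WT replicate 1 or without WT replicate 3. Of all 4050 genes with a mean of 5 to 20 normalized counts, 10.5% were at 0 in 3 or more animals.

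Uchl1 (ENSMUSG00000029223, chromosome 5 from 66676091 to 66687234, plus strand) encodes a ubiquitin hydrolase, known as PGP9.5, that is found in spermatogonia and neurons. It had 7.43, 8.68 and 161 normalized counts in WT, 0, 27.9 and 10.6 in Het and 15.5, 7.74 and 3.57 in KO. WT replicate 3 held 167 of the 252 reads and was 5.77 times the next animal. A highest animal more than 5 times the second was seen in 0.643% of the 6842 genes with a mean of 20 to 120, and WT replicate 3 was that animal for 13 genes with a mean of 5 to 120. The 4 nerve markers (Tubb3, Gap43, Snap25 and Nefl) summed to 102 normalized counts in WT replicate 3 and to 58.2 to 97.7 in the other animals. No other undifferentiated gene of the 6 was high in that animal, where Gfra1, Id4 and Etv5 were within the range of the others. The WT mean of Uchl1, 59.1 ± 88.4 (SD, n = 3), thus rests on 1 animal, and no direction between genotypes can be read from it.

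Kit (ENSMUSG00000005672, chromosome 5 from 75574916 to 75656722, plus strand) encodes the receptor that appears as spermatogonia differentiate. Leydig cells also make it, and spermatids use a shorter transcript that shares its last exons, so that 3′ reads do not separate these sources. It had 14.9, 20.3 and 29.9 normalized counts in WT, 45.4, 41.0 and 37.0 in Het and 26.6, 41.6 and 35.7 in KO. All Het animals lay above all WT animals, and KO replicate 1 lay between WT replicates 2 and 3. The log2 fold change in Het against WT was 0.94 (95% interval 0.14 to 1.74, limma unadjusted p = 0.0280, adjusted p = 0.779), and 0.71 without WT replicate 1. In KO against WT it was 0.68 (−0.18 to 1.55, adjusted p = 0.617), and 0.45 without WT replicate 1.

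Sohlh1 (ENSMUSG00000059625, chromosome 2 from 25842995 to 25847248, minus strand) and Sohlh2 (ENSMUSG00000027794, chromosome 3 from 55182028 to 55209957, plus strand) encode partner helix-loop-helix factors that drive differentiation and act on Kit. Sohlh1 had 83.0, 39.6 and 43.4 normalized counts in WT, 35.9, 34.5 and 47.6 in Het and 35.2, 34.8 and 34.9 in KO. The KO animals lay close together (SD 0.216, n = 3) and all below the WT animals. This small SD does not measure precision, as the Poisson 95% interval of KO replicate 2 alone was 24.4 to 48.2 normalized counts. The log2 fold change of Sohlh1 in KO against WT was −0.57 (95% interval −1.38 to 0.24, adjusted p = 0.636), and −0.24 without WT replicate 1. Sohlh2 had 11.1, 37.6 and 41.5 in WT, 46.3, 27.9 and 44.4 in Het and 28.3, 33.9 and 42.9 in KO. In WT replicate 1 the partners went opposite ways, Sohlh1 being highest and Sohlh2 lowest of all 9 animals. The log2 fold change of Sohlh2 in KO against WT, 0.39 (−0.90 to 1.68), turned to −0.19 without that animal, and in Het against WT 0.55 turned to −0.03.

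Stra8 (ENSMUSG00000029848, chromosome 6 from 34920163 to 34939344, plus strand) is switched on by retinoic acid in differentiating spermatogonia and at meiotic entry, and its half-sites are printed above. It had 83.0, 60.8 and 90.8 normalized counts in WT, 22.7, 94.1 and 27.5 in Het and 49.0, 27.1 and 51.8 in KO. All KO animals lay below all WT animals. The Het animals split, with replicates 1 and 3 below each WT animal and replicate 2 above. KO animals differed from WT by a log2 fold change of −0.89 (95% interval −1.70 to −0.09, limma unadjusted p = 0.0346, adjusted p = 0.610), from 78.2 ± 15.6 to 42.6 ± 13.5 normalized counts (SD, n = 3 each). It ran from −1.06 to −0.60 when single animals were left out. In Het against WT it was −0.96 (−2.33 to 0.40, adjusted p = 0.779), −0.67 by edgeR and −0.69 by DESeq2. With single animals left out it ran from −1.59 without Het replicate 2 to −0.58 without Het replicate 1. In KO against Het it was 0.07 (−1.35 to 1.49).

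**Figure D2:**
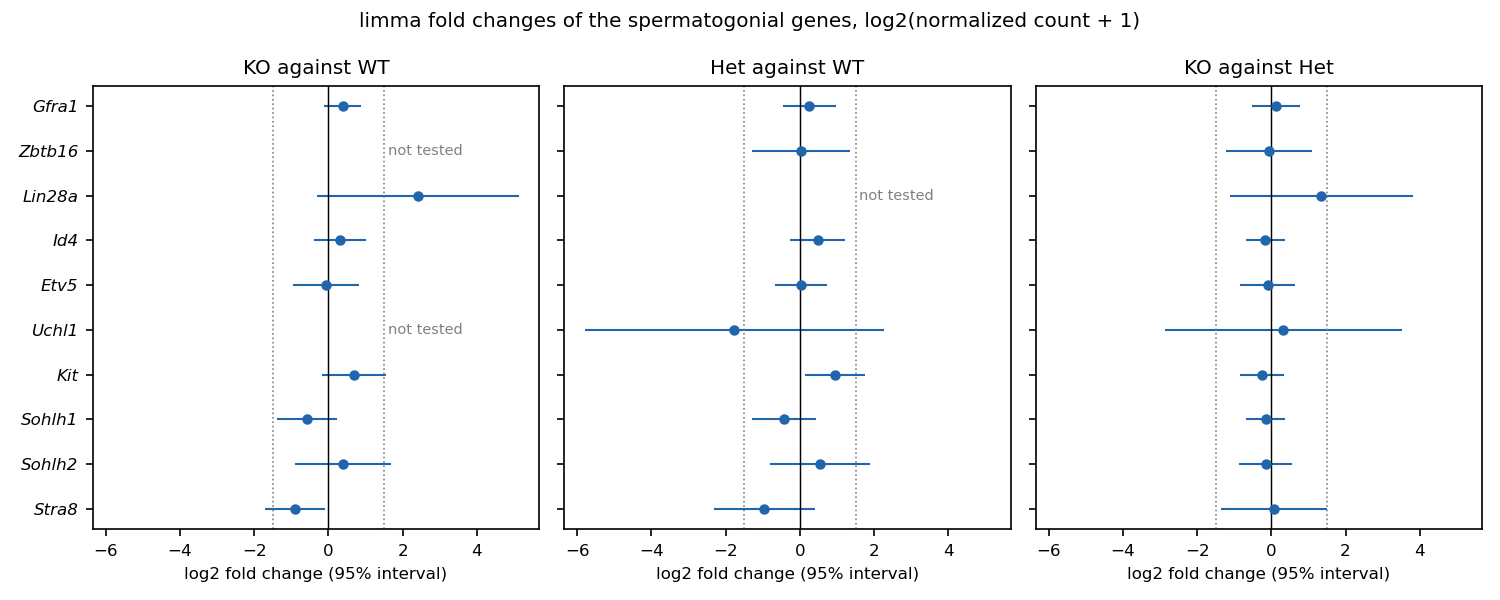
Log2 fold changes (x axis, log2(normalized count + 1)) of the 10 genes in the 3 genotype comparisons by limma. Points are estimates, lines 95% intervals, dotted lines the cutoffs of 1.5 and −1.5, and "not tested" marks genes under the filter on low values. The intervals of Stra8 in KO against WT and of Kit in Het against WT leave out 0, and no gene passed the adjusted threshold.

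By the study's cutoffs, an adjusted p under 0.05 with an absolute log2 fold change over 1.5, 0 of the 8 spermatogonial genes tested between KO and WT were called by limma, as by edgeR and DESeq2 on the recovered reads. The cutoffs called 0.0352% of all 14223 genes in that comparison. At an unadjusted p under 0.05 there was 1 gene, Stra8, which was lower in KO, where 8.07% of all genes passed and 5.03% passed being lower. KO and WT animals did not overlap in 1 gene that was higher in KO (Gfra1, 9.41% of all genes) and in 2 that were lower (Sohlh1 and Stra8, 10.5% of all genes). The median log2 fold change of the 8 genes was 0.35, where that of all genes was 0.02, and without WT replicate 1 the median of the 8 was 0.11 (a value added after the data were seen). Of the 8, 5 had a log2 fold change above 0, as had 51.4% of all genes. Lin28a passed the filter through 2 KO animals and WT replicate 2, so this median is not one over all 10.

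Between Het and WT, 9 of the 10 genes were tested and 0 were called by limma, edgeR or DESeq2, where limma called 0% of 14216 genes. Kit was the 1 gene at an unadjusted p under 0.05 (3.34% of all genes, and 1.46% with higher values in Het) and the 1 gene without overlap (6.76% of all genes lay without overlap higher in Het). The median of the 9 log2 fold changes was 0.03 and that of all genes 0.01. With single animals left out the median of those still tested ran from −0.11 without WT replicate 2 to 0.39 without Het replicate 2. Between KO and Het all 10 were tested, and 0 were called by limma, edgeR or DESeq2, where limma called 0.0558% of 14343 genes. None of the 10 had an unadjusted p under 0.05 (3.56% of all genes), and in each the genotypes overlapped, where 5.12% of all genes lay without overlap higher in KO and 4.90% lower. The narrowest intervals here were those of Id4 (−0.68 to 0.36) and Sohlh1 (−0.68 to 0.38). The comparisons share animals, so they are not independent of each other.

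The spread between animals of 1 genotype was set against counting error, as the ratio of the variance within genotypes to the Poisson variance of the reads, which is 1 where counting alone sets the spread. Kit had the lowest ratio of the 10 at 1.57, followed by Zbtb16 (2.47) and Gfra1 (2.57). Sohlh1, Id4, Sohlh2 and Etv5 lay between 3.60 and 4.03. The median was 4.71 over the 6842 genes with a mean of 20 to 120 (quartiles 2.39 and 10.1) and 2.18 over the 4050 with a mean of 5 to 20 (quartiles 1.17 and 4.16). Stra8 (13.9) and Uchl1 (48.0) were above the upper quartile of their band, as was Lin28a (5.05) of the lower one. For Stra8 the excess lay in the Het animals, with a coefficient of variation of 83.0% against 19.9% in WT and 31.7% in KO.

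**Figure D3:**
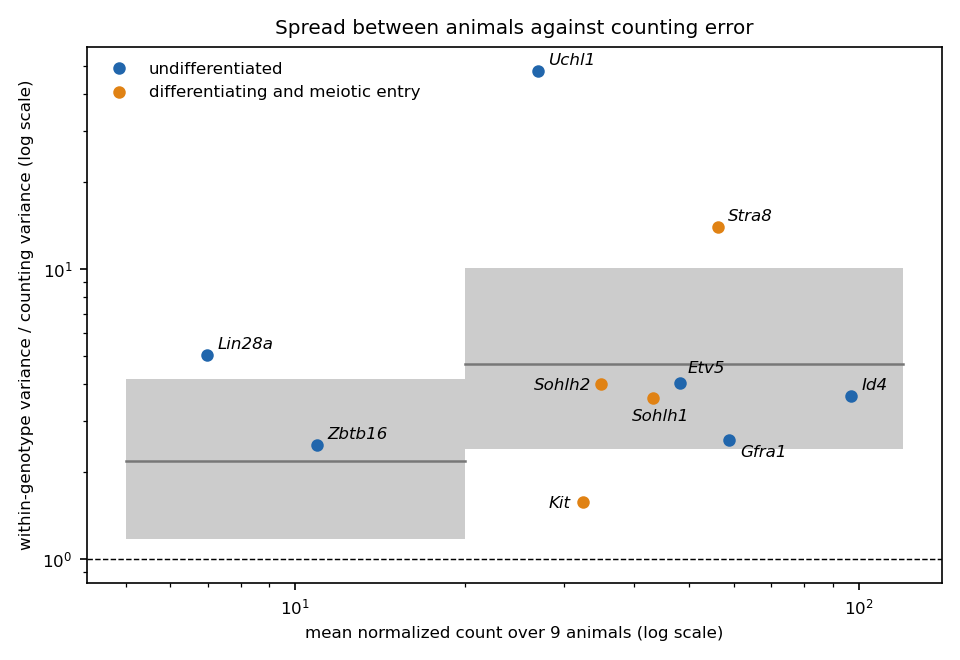
Ratio of within-genotype variance to counting variance (y axis, log scale) against the mean normalized count over 9 animals (x axis, log scale) for each of the 10 genes. Grey bands and lines are the quartiles and medians over all genes with means of 5 to 20 and 20 to 120, and the dashed line is counting error alone. Uchl1 (48.0) and Stra8 (13.9) stand above the bands and Kit (1.57) below.

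Summed over the 6 undifferentiated genes, WT animals had 199 to 358 normalized counts, Het animals 229 to 269 and KO animals 212 to 266. The highest sum was that of WT replicate 3 with its Uchl1 reads. Over the 5 genes left without Uchl1, a choice made after its values were seen, the sums were 192, 194 and 197 in WT, 229, 241 and 246 in Het and 232, 258 and 208 in KO. In these sums the WT animals lay together below the others. In RPM this was also so (45.9 to 49.8 in WT, 62.9 to 67.7 in Het and 56.9 to 78.9 in KO). Averaged per animal as log2(normalized count + 1), these 5 genes gave 4.38, 4.74 and 4.22 in WT. Het animals had 4.32, 5.10 and 5.04 and overlapped with WT. KO animals had 4.98, 5.30 and 4.87, all above WT. How often sums of other genes separate in this way was not tested. The sums of 26 further genes of undifferentiated spermatogonia overlapped in normalized counts (488 to 591 in WT, 576 to 685 in Het and 542 to 663 in KO). In RPM they were lower in all WT animals (119.6 to 141 in WT, 158 to 189 in Het and 148 to 202 in KO). The separation of WT in RPM was thus not particular to the 5 genes. For the 4 differentiating genes the sums were 158 to 206 in WT, 150 to 197 in Het and 137 to 165 in KO, and they overlapped.

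**Figure D4:**
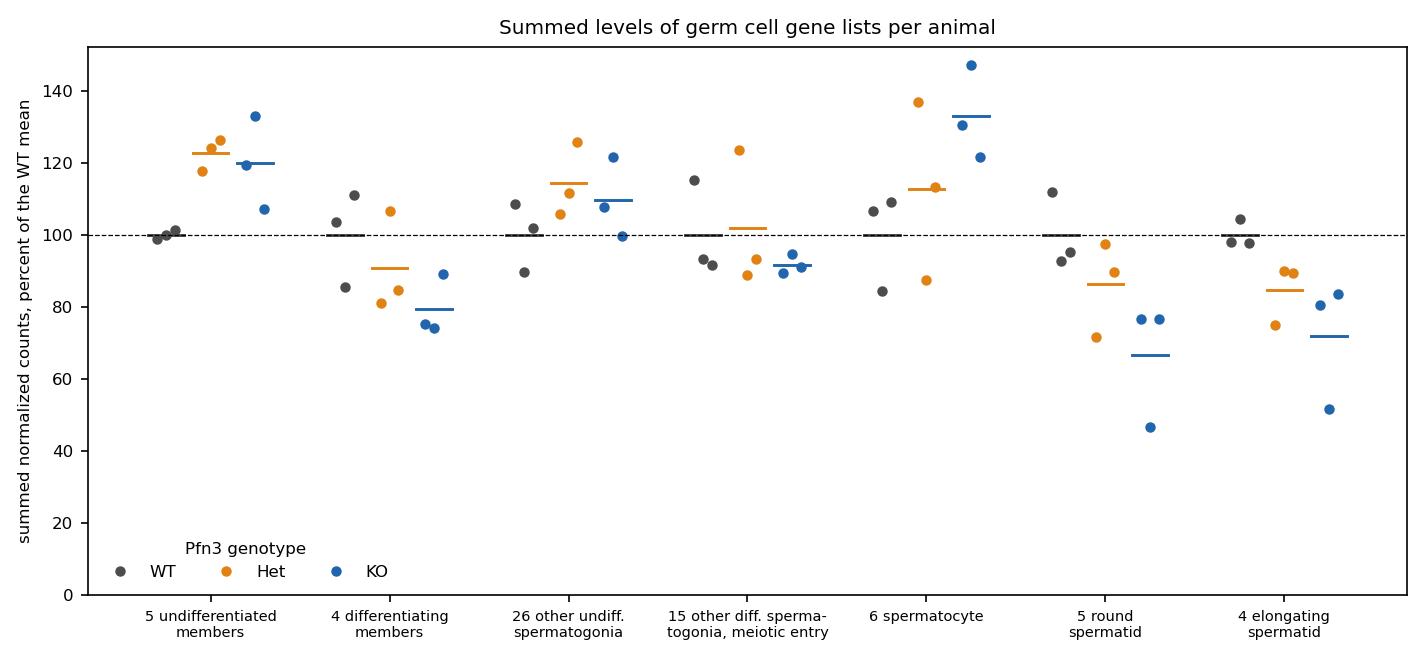
Summed normalized counts per animal as a percent of the WT mean (y axis, from 0) for lists of germ cell genes (x axis), with points for animals, bars for group means (n = 3) and colours for Pfn3 genotype. The 5 undifferentiated genes without Uchl1 lie at 98.8% to 101% in WT, 118% to 126% in Het and 107% to 133% in KO, beside elongating spermatid markers at 51.7% to 83.6% in KO.

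Among 26 further genes of undifferentiated spermatogonia, 11 reached a mean of 10 normalized counts. Epcam, Taf4b and Foxo1 had the highest means, 212, 87.9 and 61.1. Pax7 and T, markers of rare stem cell subsets, were at 0 in all animals, and Nanos2, Utf1 and Neurog3 had reads in 1 animal each. Between KO and WT, 9 were tested, 0 were called by any of the 3 tools and 0 had an unadjusted p under 0.05, with 4 higher in KO and 5 lower and a median log2 fold change of −0.07. Between Het and WT, 12 were tested and 0 were called by limma or edgeR. DESeq2 called 1, Dusp6, a phosphatase that dampens ERK signalling, where it called 31 of all 14216 genes. Dusp6 had 4.95, 2.89 and 0 normalized counts in WT, 73.7, 60.5 and 51.9 in Het and 61.0, 72.6 and 6.26 in KO. The Het animals lay far above the WT animals, with a log2 fold change of 4.45 (SE 0.73, limma adjusted p = 0.779) by limma and 4.65 by DESeq2 (adjusted p = 6.09e-06), and KO replicate 3 sat near WT. Dusp6 did not pass the filter for KO against WT. Jumps between animals were also large within genotypes for some listed genes, as for the Sertoli cell marker Amhr2 (6.19, 589 and 535 in WT). At an unadjusted p under 0.05 stood also Tspan8, a tetraspanin of stem-cell-enriched spermatogonia, with a log2 fold change of −0.87 in Het against WT and 0.89 in KO against Het, the 1 gene of 12 there. Its Het animals had 9.31 to 14.2 normalized counts, below the 18.3 to 25.1 of WT and 18.4 to 26.8 of KO. Of all genes, 3.34% passed this unadjusted threshold in Het against WT and 3.56% in KO against Het.

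Of 15 further genes of differentiating spermatogonia and meiotic entry in the table, 13 were tested in each comparison and 0 were called by any of the 3 tools. Gm4969, whose current name is Meiosin and which encodes the partner of STRA8, was at 0 in all animals, under the detection limit of 3 reads in each. Such a 0 can also be a failed estimate, so it does not show that the transcript is absent. Dmrtb1, Ddx4 and Dazl had the highest means, 2534, 1056 and 619 normalized counts. In KO against WT, Dazl, an RNA-binding protein of germ cells, had a log2 fold change of 0.77 and Esx1, an X-linked homeobox gene, of −4.80, the 2 with an unadjusted p under 0.05 (adjusted p = 0.610 for both by limma). Of all genes, 8.07% had such an unadjusted p in that comparison. Esx1 had 69.5 to 90.8 normalized counts in WT, 51.0, 0 and 38.1 in Het and 23.2, 0 and 0 in KO. Rhox13, a homeobox gene that retinoic acid induces, had 37.1 to 43.4 in WT, 21.2 to 29.8 in Het and 38.4 to 47.2 in KO, with a log2 fold change of −0.68 in Het against WT and 0.79 in KO against Het (adjusted p = 0.779 and 0.973 by limma).

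For the niche, 21 genes of signals and retinoic acid were listed, and 12 were tested between KO and WT, 14 between Het and WT and 12 between KO and Het, with 0 called by any of the 3 tools. Aldh1a1, Cyp26b1 and Aldh1a2, the enzymes that make and break down retinoic acid, had the highest means, 778, 336 and 300.2 normalized counts, and log2 fold changes in KO against WT of 0.10, −0.26 and 0.18. Kitl, the ligand of KIT, was the 1 gene at an unadjusted p under 0.05 in KO against WT, where 8.07% of all genes passed. It had 32.2, 40.5 and 58.9 normalized counts in WT, 112, 36.3 and 65.6 in Het and 62.7, 94.8 and 75.1 in KO. Each KO animal lay above each WT animal, with a log2 fold change of 0.83 (SE 0.31, limma adjusted p = 0.610). Gdnf, the ligand of GFRA1, had 4.23 to 12.4 normalized counts, and its receptor partner Ret was at 0 in 6 animals and at most 4.95 in the others.

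Markers of other cells in the testis were at these levels. The Sertoli cell list (11 genes, led by Clu, Cst12 and Aard, with Fshr at 0) summed to 4757 to 5146 normalized counts in WT, 3763 to 5515 in Het and 4007 to 6997 in KO. In this list DESeq2 called Wt1, in KO against WT (adjusted p = 0.0329) and in Het against WT (adjusted p = 1.63e-06), while limma and edgeR called 0. Over all genes DESeq2 called 100 of 14223 in KO against WT and 31 of 14216 in Het against WT. Wt1 had 9.90 to 29.0 normalized counts in WT, 116 to 180 in Het and 155, 199 and 32.2 in KO. Amhr2 of the same list jumped between animals within each genotype. It had 6.19, 589 and 535 in WT, 3.78, 624 and 10.6 in Het and 520, 15.5 and 12.5 in KO. Whether the values of Dusp6 and Wt1 reflect genotype or such jumps was not tested. The Leydig cell list (7 genes, led by Cyp17a1, Fabp3 and Cyp11a1) summed to 2698 to 4551 in WT, 1935 to 2987 in Het and 2467 to 3490 in KO. Peritubular cells (5 genes, led by Acta2, Myh11 and Des) had 294 to 480 in WT, 324 to 870 in Het and 259 to 420 in KO, the highest in Het replicate 1. Macrophages (6 genes, led by Lyz2, Csf1r and C1qb) had 229 to 416 over all animals, and vessels and blood (7 genes, led by Hbb-bs, Hba-a1 and Hba-a2) 922 to 1396. The germ cell lists were led by Piwil1, Sycp1 and Sycp3 for spermatocytes, by Tssk1, Acrv1 and Spaca1 for round spermatids and by Prm1, Tnp1 and Prm2 for elongating spermatids. Round spermatid markers summed to 3864 to 4650 in WT, 2983 to 4059 in Het and 1939 to 3192 in KO. In KO against WT, 5 of 5 tested spermatocyte markers had a log2 fold change above 0, and 4 of 5 round and 4 of 4 elongating spermatid markers had one below 0, with 0 called by limma, edgeR or DESeq2. In the same comparison the unadjusted p was under 0.05 for Sycp1 and Sycp3, for Tssk1, and for Tnp2 and Prm2. Of the other cell lists, Wt1 (higher in KO) and the macrophage marker C1qb (lower) also passed. Of all genes, 51.4% had a log2 fold change above 0 and 8.07% an unadjusted p under 0.05. In Het against WT the markers passing were Wt1 and Sox9, which were higher, and Tnp2 and Prm2, which were lower (3.34% of all genes passed).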

How the data were processed

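The authors trimmed 3′ reads with Trim Galore 0.4.5, mapped them to GRCm38 with HISAT2 2.1 and counted genes with StringTie 1.3.3 and its preDE script, with pseudogenes removed. The deposited values are a signal: each is a gene's read count over its sample's size factor. This was read from the values: 100% of nonzero values per sample are whole multiples of 1 step (tolerance 1e-06), which gave the gene counts called reads here. Whether strand was used in counting is not given in the sources used here. StringTie derives counts from coverage, so they can differ from the reads sequenced, and a 0 can be a failed estimate. The Poisson intervals, the detection limit and the counting variance treat these counts as reads. Genes on the opposite strand that overlap Gfra1, Lin28a, Id4 and Uchl1 had at most 2.68 normalized counts where they had values. Gm49291, which also overlaps Id4 on the opposite strand, had no values and was not checked.

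Genotypes were compared with limma 3.58.1 (eBayes with a trend) in R 4.3.3 on log2(value + 1), on the 6 animals compared, over genes with at least 10 in at least 3 animals, Benjamini-Hochberg adjusted over all genes tested. Alternatives used edgeR 4.0.16 and DESeq2 1.42.0 on the reads, other pseudocounts, TMM factors, no filter, all 9 animals, a replicate block and each animal left out. The fits were also run on simulated data, with planted changes larger than most seen in the 10 genes. These were planted in genes with means above those of Zbtb16 and Lin28a. How the fits recover smaller changes, or changes at lower counts, was not tested. Coordinates and overlapping genes are from GENCODE M21 (GRCm38). They may differ from the bounds of the merged assembly loci that were counted. Python 3.11.15, numpy 2.4.6, pandas 2.3.3, scipy 1.17.1 and matplotlib 3.10.9 were used.

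The 10 genes, lists and tests were chosen with earlier results of these data known. All 10 were named, and of the other lists the 3 genes with the highest mean, those called by any tool and those behind a count of 5 or fewer. Tspan8, Rhox13, Gdnf, Ret, Nanos2, Utf1, Neurog3 and Amhr2 were otherwise chosen after their values were seen. Genes most like a member were to be named for members with a mean of at least 100 normalized counts, which none reached. Animals are taken as separate mice from their numbered titles. If replicates were technical, p-values would measure that spread only.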

Additional observations from a re-analysis of the deposited data

How the results depend on the processing

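In all alternatives and with each animal left out, 0 of the spermatogonial genes tested were called, by limma, edgeR or DESeq2. Not all 10 were tested in each. Zbtb16 and Uchl1 in KO against WT and Lin28a in Het against WT were fitted only with no filter. In their other comparisons these 3 genes were tested in 3 of the 6 fits that left out an animal. The lowest adjusted p among the refits was 0.552 (Kit) in KO against WT, 0.468 (Stra8, without Het replicate 2) in Het against WT and 0.821 (Uchl1) in KO against Het. Counts over all genes moved more. In KO against WT (5 genes by limma) they were 100 with DESeq2, 3 with all 9 animals in 1 fit and 0 with the replicate block, and 0 to 49 with animals left out, where dropping WT replicate 1 gave 49 and dropping WT replicate 2 or 3 gave 0, while dropping KO replicates 1, 2 and 3 gave 11, 0 and 1. In Het against WT (0 genes) they were 31 with DESeq2, 3 with all 9 animals, 3 with no filter, 2 with a pseudocount of 5, 1 with TMM factors and 0 with the replicate block, and 0 to 3 with animals left out, 3 without Het replicate 2 and 0 without any other. In KO against Het (8 genes) they were 38 with DESeq2, 4 with all 9 animals and 0 with the replicate block, and 0 to 39 with animals left out, 39 without Het replicate 2, 0 without Het replicate 3 or KO replicate 1 and 1 without any other. Replicate numbers did not pair the animals: deviations of same-numbered animals correlated at −0.14 to 0.20 (9 pairs) and those of others at −0.25 to 0.20 (18 pairs). The block could not change the fold changes of the 10 genes, because each genotype holds the same replicate numbers.

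Of 219 refits of their fold changes without leaving out an animal, 9 changed sign, all for values near 0 or for Uchl1: Zbtb16 in Het against WT was −0.041 with edgeR and −0.062 with DESeq2, Zbtb16 in KO against Het 0.037 and 0.016, Stra8 in KO against Het −0.15 and −0.17, and Uchl1 in KO against Het −0.49 and −0.52, and −0.066 with a pseudocount of 5. Among these refits, those with no filter, all 9 animals or the replicate block could not change sign. They use the same group means as the main fit. Of 144 refits that left out 1 animal, 19 changed sign. In KO against WT, Etv5 ran from −0.34 to 0.17 and Sohlh2 from −0.19 to 0.71. In Het against WT, Gfra1 ran from −0.0013 to 0.39, Zbtb16 from −0.33 to 0.17, Etv5 from −0.11 to 0.27 and Sohlh2 from −0.033 to 0.87. In KO against Het, Gfra1 ran from −0.0076 to 0.38, Zbtb16 from −0.21 to 0.14, Etv5 from −0.38 to 0.13, Uchl1 from −1.07 to 0.79 and Stra8 from −0.31 to 0.69. The causes were not tested. Zbtb16, Lin28a and Uchl1 rest on 0 to 30 reads in each animal but 1. Their variance within genotypes was 2.47, 5.05 and 48.0 times the counting variance, and how far counting error sets the spread was not tested.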
